A study of Mus musculus with 18 samples.

Results

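The 34 genes described here encode the enzymes and transporters of glycolysis together with transcripts that cells raise when oxygen is short. They were taken by symbol from a list of glycolytic and hypoxia-response genes, and all 34 were found among the 34591 gene symbols of the count files. RNA sequencing covered 18 cultures of 4T1, a mouse mammary tumour line, in 6 groups of 3 libraries. Parental cells received fresh RPMI medium alone (untreated) or with 2 ng/mL recombinant human TGFb1, a cytokine that drives epithelial plasticity and matrix production, and RNA was taken after 24 h. The other 4 groups were puromycin-selected stable lines carrying an empty lentiviral vector (EV) or overexpressing Wisp1, a matricellular CCN protein that cells secrete, each grown subconfluent on tissue-culture plastic or on plastic coated with collagen type I. All groups shared the parental line and a growth medium with serum, and the labels name no low-oxygen condition. Each stable line is a single transduced line, and replicates are further samples of the same line, so p-values measure only the spread between these samples.

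Glycolysis splits glucose to pyruvate, and tumour cells commonly send much of that pyruvate to lactate even in the presence of oxygen. Many of its genes are targets of the hypoxia-inducible factors, whose alpha subunits (Hif1a among them) are hydroxylated by the prolyl hydroxylases Egln1, Egln2 and Egln3 when oxygen is present and are then degraded. This control acts mainly on the protein, so transcript counts do not measure HIF activity. Egln3 and Egln1 are themselves HIF targets, as are Car9, Bnip3, Pdk1, Adm and Ankrd37.

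Libraries of untreated cells held 74.3 to 83.6 M gene counts (M, mega) and those of TGFb1-treated cells 67.6 to 85.4 M, with 41.8 to 77.7 M (EV) and 37.6 to 59.6 M (Wisp1) on plastic, and 54.4 to 94.4 M (EV) and 50.03 to 81.0 M (Wisp1) on collagen. Levels are CPM, a gene's counts per 1 M gene counts of its library, with TMM scaling over all 18 libraries. Wisp1 itself was at 36.5, 47.0 and 71.4 CPM in EV and 892, 904 and 1065 CPM in Wisp1 cells on plastic, and at 14.3 to 16.4 CPM against 1058 to 1127 CPM on collagen. Epithelial markers summed to between 2339 and 4923 CPM, although the basal keratin Krt5 was at or near 0, whereas endothelial markers summed to at most 0.459 CPM. Fibroblast markers summed to between 16.8 and 68.9 CPM, with Pdgfra reaching 61.2 CPM, while Dcn and Lum were near 0 and Thy1 had no count. Leukocyte markers summed to between 4.20 and 21.7 CPM, with Lyz2 up to 13.4, Cd68 up to 11.6 and Csf1r up to 3.22 CPM, while the pan-leukocyte Ptprc reached at most 0.703 CPM and Cd3e had no count. The part of such cells in the results below was not tested. In such bulk cultures, fewer cells of a type and less RNA per cell cannot be told apart.

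The 34 genes together held 0.724 ± 0.071% of gene counts in untreated cells and 0.658 ± 0.012% with TGFb1 (mean ± SD, n = 3). In the stable lines the share was 1.28 ± 0.080% (EV) and 1.28 ± 0.042% (Wisp1) on plastic, and 1.2 ± 0.068% and 1.23 ± 0.14% on collagen. Ldha, the lactate dehydrogenase subunit that makes lactate, lay between 490 and 843 CPM in the 6 parental libraries and between 1665 and 2220 CPM in the 12 libraries of the stable lines. Bnip3, a mitochondrial mitophagy receptor, lay between 16.1 and 31.6 CPM in parental cells and between 66.6 and 140 CPM in the stable lines. Aldoc, a minor aldolase isoform, had the opposite order, at 21.9 to 54.2 CPM in parental cells and 5.33 to 19.7 CPM in the stable lines. Line, medium change and sample set differ together between these sets and cannot be told apart, so no test was made. Of the glucose transporters among the 34 genes, Slc2a1, the widespread one, was at 88.7 to 143 CPM over all libraries. Slc2a3, the high-affinity transporter, had between 0 and 5 counts per library and did not pass the filter on counts for the tests below. Glucose uptake was not measured.

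In parental cells the question was which of these genes respond to TGFb1. In the fit without a block, Egln3 fell and Ddit4 and Slc16a3 rose, and the other 30 members tested did not pass. The untreated and TGFb1 libraries also share codes in their titles. With that code as a block, 13 of 33 members were called, where 44.9% of all genes were, as given below. Tests in this paragraph are without the block. Egln3, a HIF prolyl hydroxylase, was at 86.3, 94.7 and 103 CPM in the untreated libraries and at 15.0, 19.0 and 10.6 CPM with TGFb1. The groups were far apart, and the change was −2.66 ± 0.22 on the log2 scale (± SE, 6.31-fold lower, adjusted p = 0.0024, edgeR quasi-likelihood test with Benjamini-Hochberg adjustment over 14874 genes). Ddit4 encodes a stress-induced inhibitor of mTORC1. It was at 77.2, 74.8 and 72.9 CPM untreated and at 281, 340 and 397 CPM with TGFb1, again without overlap, a log2 change of 2.19 ± 0.15 (4.57-fold higher, adjusted p = 0.0014). Slc16a3, the lactate exporter of highly glycolytic cells, had 1, 0 and 2 counts in untreated libraries and 28, 21 and 17 counts with TGFb1. It reached at most 0.337 CPM, and it passed the filter on counts only through the TGFb1 libraries, where it was high. The summed counts of 66 against 3, scaled for depth, gave a ratio of 21.8 with an exact 95% counting interval of 7.15 to 109. Its adjusted p was 0.011, and 0.054 without the second TGFb1 library.

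Thus 3 of 33 members tested were called without the block at an adjusted p under 0.05, where 11.1% of all genes tested were called (6.14% higher and 4.92% lower). The median log2 change was −0.11 over the members and −0.01 over all genes. In a fit of all 18 libraries 6 members were called, with Pfkp, Ldha and Egln1 added, where 32.4% of all genes were called. Hif1a was at 222, 218 and 219 CPM untreated and at 208, 210 and 208 CPM with TGFb1, a log2 change of −0.06 ± 0.07 (adjusted p = 0.70). Car9, the cell-surface carbonic anhydrase widely used as a hypoxia marker, was at 22.2, 25.6 and 54.1 CPM untreated and 19.6, 29.2 and 50.4 CPM with TGFb1. The spread of Car9 within each group exceeded the difference between them (log2 change −0.02 ± 0.46, adjusted p = 0.99).

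**Figure D1:**
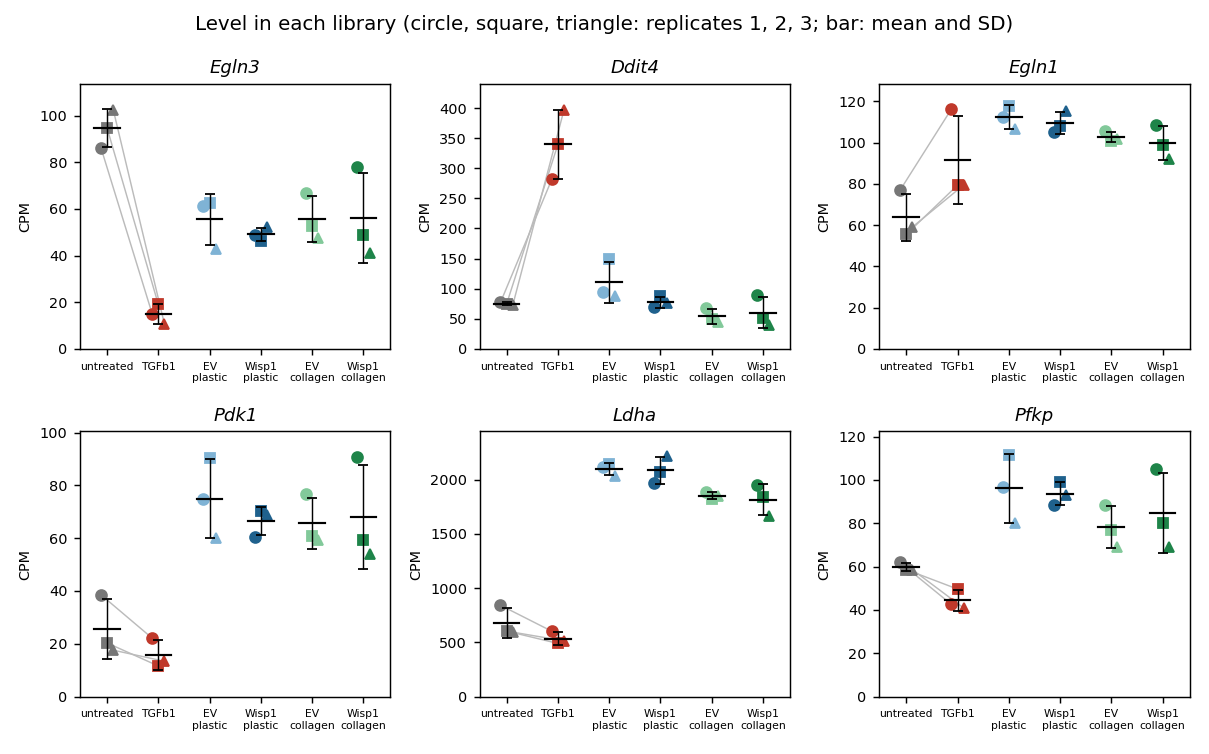
Level of 6 genes in CPM (y axis, linear from 0) in each of the 18 libraries by group (x axis). Symbols are replicates, bars are mean and SD of 3, and grey lines join the parental libraries that share a code: Egln3 stood at 10.6 to 19.0 CPM with TGFb1 and at no less than 86.3 CPM untreated.

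The untreated and TGFb1 libraries share codes in their labels, and libraries of the same code deviated together from their group means. With that code as a replicate block, 13 of 33 members were called, 3 higher and 10 lower, where 44.9% of all genes were called (22.4% higher and 22.5% lower). The 3 higher were Slc16a3, Ddit4 and Egln1, and the 10 lower were Egln3, Slc2a1, Hk2, Pfkp, Tpi1, Gapdh, Pgk1, Pkm2, Ldha and Pdk1. In the fit of the 6 parental libraries without the block, none of these but Slc16a3, Ddit4 and Egln3 passed. Of the 33 members, 15 were lower in every one of the 3 code pairs and 3 were higher in every pair, where 37.1% and 33.4% of all genes tested were.

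Egln1, the main HIF prolyl hydroxylase, was at 76.9, 55.5 and 59.0 CPM untreated and 116, 79.3 and 79.4 CPM with TGFb1. Each treated library was above its partner and above all untreated libraries (log2 change 0.53 ± 0.19, adjusted p = 0.15; with the block 0.52 ± 0.05, adjusted p = 0.00035). Pdk1, the kinase that holds pyruvate dehydrogenase off, was at 38.6, 20.3 and 17.6 CPM untreated and 22.1, 11.6 and 13.4 CPM with TGFb1. The groups overlapped, while the log2 differences within code pairs were −0.80, −0.81 and −0.39 (with the block −0.66 ± 0.11, adjusted p = 0.0026; without it adjusted p = 0.31). Ldha was at 843, 605 and 595 CPM untreated and 603, 490 and 514 CPM with TGFb1, and its pair differences were −0.48, −0.30 and −0.21 (with the block adjusted p = 0.0094; without it 0.26). Pkm2, a pyruvate kinase, was at 2307, 1717 and 1664 CPM untreated and 1802, 1479 and 1373 CPM with TGFb1 (with the block −0.27 ± 0.05, adjusted p = 0.0057; without it 0.35). Pfkp, the platelet-type phosphofructokinase, was at 61.9, 58.6 and 58.6 CPM untreated and 42.6, 49.6 and 40.9 CPM with TGFb1, with no overlap (log2 change −0.42 ± 0.11, adjusted p = 0.063; with the block 0.0046). Slc2a1 was at 119, 143 and 126 CPM untreated and 93.1, 124 and 116 CPM with TGFb1 (adjusted p = 0.45; with the block 0.034). Hk2, the inducible hexokinase, was at 74.0, 102 and 85.2 CPM untreated and 70.5, 85.2 and 66.0 CPM with TGFb1 (adjusted p = 0.45; with the block 0.026). Slc2a1 and Hk2 overlapped between the groups. Markers of proliferating cells also moved, and summed to 2706 to 2854 CPM untreated and 1488 to 2014 CPM with TGFb1. Of these, 3 of 7 were called lower without the block and 7 of 7 with it, where 4.92% and 22.5% of all genes were. The part of proliferation in the differences of the members was not tested.

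Other genes of the pathway, from lists that leave out the 34, were also read, in the fit without the block. Of all genes tested there, 6.14% were called higher and 4.92% lower. Of 18 further glycolytic and pyruvate genes tested, 2 rose and 1 fell. Slc16a1, the widely expressed lactate transporter, fell from 326, 293 and 250 CPM to 174, 160 and 131 CPM (1.86-fold lower, adjusted p = 0.013). Its direction was opposite to that of Slc16a3, which reached only 0.337 CPM with TGFb1. Pdk2, a second pyruvate dehydrogenase kinase, rose from 4.71, 3.59 and 4.47 CPM to 7.61, 7.89 and 8.31 CPM (1.88-fold, adjusted p = 0.026). The other riser was Pfkfb2, which makes the phosphofructokinase activator fructose 2,6-bisphosphate (1.55-fold, adjusted p = 0.018). Of 9 HIF regulators tested, 1 passed: Cited2, which competes with HIF for its coactivators, rose 2.53-fold (adjusted p = 0.0054). Of 34 further hypoxia-response genes tested, 7 rose and 3 fell. Vegfa, the endothelial growth factor, rose from 45.2, 50.9 and 33.7 CPM to 237, 300 and 270 CPM (6.26-fold, adjusted p = 0.0015). Bhlhe40, a transcriptional repressor, rose 5.97-fold (adjusted p = 0.0049) and the collagen lysyl hydroxylase Plod1 2.43-fold (adjusted p = 0.0061). The 3 that fell were the uridine phosphorylase Upp1 (1.94-fold lower, adjusted p = 0.032), the oxidoreductase Ero1l (1.42-fold lower, adjusted p = 0.047) and the transferrin receptor Tfrc (1.64-fold lower, adjusted p = 0.048).

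The stretches of 250 bases upstream of the starts of Egln3 and Ddit4 are shown because these were the members that fell most and, among those with more than a few counts, rose most with TGFb1. They come from RefSeq on GRCm38.p6 and are written 5′ to 3′ on the gene's strand, in lower case. Capitals mark ACGTG or GCGTG on either strand, the core letters of the element that HIF binds. The Egln3 window (chr12:54203875-54204124, minus strand) held 1 match, 229 bases before the start, and the Ddit4 window (chr10:59951771-59952020, minus strand) held 2.
Egln3: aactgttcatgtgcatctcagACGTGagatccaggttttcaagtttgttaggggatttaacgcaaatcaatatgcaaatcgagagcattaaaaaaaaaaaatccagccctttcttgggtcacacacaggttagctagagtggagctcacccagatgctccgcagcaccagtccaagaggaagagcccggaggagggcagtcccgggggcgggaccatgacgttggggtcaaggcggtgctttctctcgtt
Ddit4: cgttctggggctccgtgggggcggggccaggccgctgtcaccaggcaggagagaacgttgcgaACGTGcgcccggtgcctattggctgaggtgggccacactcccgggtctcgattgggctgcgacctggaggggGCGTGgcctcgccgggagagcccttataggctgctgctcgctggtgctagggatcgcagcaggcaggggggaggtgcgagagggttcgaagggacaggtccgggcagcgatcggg
Windows were found for 31 of the 34 members, 48 windows in all, some of them overlapping. Slc2a3, Ndrg1 and Bnip3l had none. At least 1 match lay in 37 of the 48 windows (77.1%), against 12679 of the 32851 windows of all genes (38.6%). Windows of the same gene can share a match and are not independent, so no interval is given. The members were listed as glycolytic and hypoxia-response genes, many of them HIF targets, so their share is not independent of that choice. On the gene's strand alone the shares were 52.1% and 25.5%. The members' windows were also richer in CpG, with a median of 14 per window against 6, and the part of this in the motif share was not tested. A match is a run of letters and no evidence of binding.

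Wisp1 overexpression was then compared with EV on each substrate. On plastic 0 of 32 members tested were called by edgeR, DESeq2 or limma-voom, where edgeR called 0.0143% of 13953 genes. In edgeR 1 member had an unadjusted p under 0.05, where 822 of the 13953 genes had one. On collagen 0 of 32 were called by the same 3 tools, where edgeR called 0.0717% of all genes. Again 1 member had an unadjusted p under 0.05 in edgeR, where 707 of the 13953 genes had one. The median log2 change of the members was −0.03 on plastic and 0.08 on collagen. The gene with the unadjusted p under 0.05 was Hif1a on both substrates. Hif1a was at 249, 267 and 263 CPM in EV and 232, 247 and 228 CPM in Wisp1 cells on plastic, and the groups did not overlap. On collagen it was at 218, 225 and 234 CPM in EV and 203, 207 and 212 CPM in Wisp1 cells, also without overlap. The log2 changes were −0.14 ± 0.04 (adjusted p = 0.70) and −0.12 ± 0.04 (adjusted p = 0.87). The labels give the stable-line libraries no shared code. A block on the replicate number within each substrate was chosen after seeing the data and rests on correlations of the data alone. With that block in edgeR, Hif1a had adjusted p = 0.011 on plastic and 0.026 on collagen. It was then the 1 member called on each, where 3.15% (1.08% lower) and 2.57% (0.939% lower) of all genes were called.

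On plastic 2 of 32 members tested, Hif1a and Hk2, had no overlap between EV and Wisp1 cells, where 12.2% of all genes tested had none, and on collagen 1 of 32, Hif1a, had none (8.94% of all genes). Every Wisp1 library on plastic was above every EV library for Hk2, from 86.3 to 88.4 CPM against 82.6 to 86.2 CPM, and the gene was not called. On plastic, Slc2a1 was at 93.9, 98.2 and 88.7 CPM in EV and 88.8, 89.2 and 102 CPM in Wisp1 cells. Car9 was at 37.6, 43.5 and 30.1 CPM in EV and 26.8, 30.8 and 37.9 CPM in Wisp1 cells on plastic. Pdk1 was at 74.7, 90.3 and 60.1 CPM in EV and 60.3, 70.3 and 68.6 CPM in Wisp1 cells. In each of these at least 2 of the 3 Wisp1 libraries lay inside the range of the EV libraries. Ddit4 had the largest log2 change of the members on plastic, at 95.2, 150 and 87.0 CPM in EV and 69.5, 87.7 and 75.7 CPM in Wisp1 cells (log2 change −0.51 ± 0.31). The 7 hypoxia targets grouped apart from glycolysis, oxygen sensing and the mitochondrial genes were Car9, Ankrd37, Ndrg1, Ddit4, Adm, Kdm3a and Mxi1. All 7 had log2 changes below 0 on plastic and above 0 on collagen, none of them called. Of the mitochondrial genes, Pdk1, Bnip3 and Bnip3l had the same signs. Higd1a was below 0 on both substrates (−0.05 on plastic and −0.09 on collagen), and none of these was called either. The difference between the substrates was tested as an interaction. It called 0 of 32 members by edgeR, DESeq2 and limma-voom, with 0 at an unadjusted p under 0.05 in edgeR and a smallest adjusted p of 0.97, where edgeR called 0% of 13953 genes (410 at an unadjusted p under 0.05) and DESeq2 and limma-voom called 1 gene each.

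**Figure D2:**
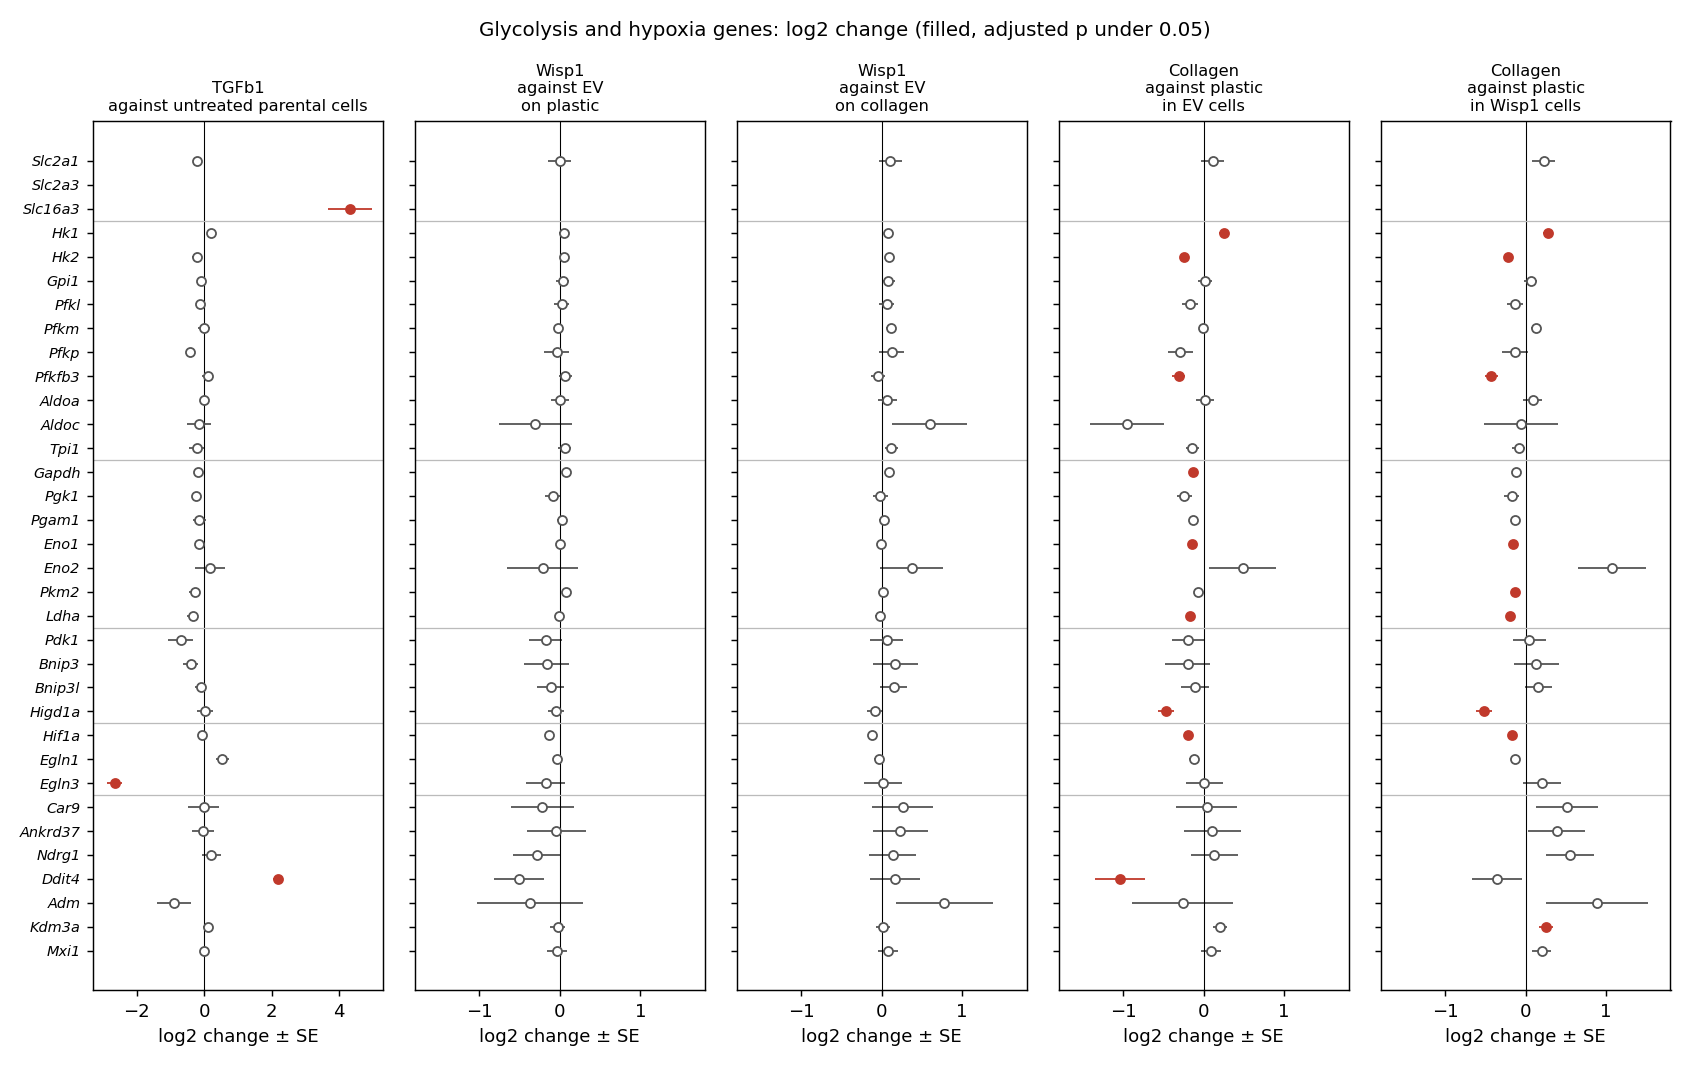
Log2 change ± SE (x axis) of each member (y axis, ordered by role, grey lines between roles) in 5 comparisons. Filled red symbols passed an adjusted p of 0.05; the first panel has a wider axis, and both Wisp1 panels hold no filled symbol.

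In the fits of 6 parental or 12 stable-line libraries without a block, small changes in glycolytic enzymes passed only for collagen against plastic. With TGFb1, Hk2, Pfkp, Tpi1, Gapdh, Pgk1, Pkm2 and Ldha passed with the code as a block, and Pfkp and Ldha in the fit of all 18 libraries. In EV cells 9 of 32 members were called, 1 higher and 8 lower, where 36.5% of all genes tested were called (19.2% higher and 17.3% lower). In Wisp1 cells 9 of 32 were called, 2 higher and 7 lower, where 40.4% were called (21.3% and 19.1%). The members' share was thus below that of all genes in both lines. The comparisons in EV and Wisp1 cells share the estimate of spread but no library, and each shares its libraries with the comparisons of Wisp1 with EV. The median log2 change of the members was −0.13 in EV and −0.01 in Wisp1 cells. In a fit of all 18 libraries 2 members were called in EV (Hif1a and Ddit4) and 3 in Wisp1 cells (Pfkfb3, Higd1a and Hif1a), where 10.8% and 13.8% of all genes were called. Proliferation markers summed to 3446 to 3481 CPM on plastic and 3324 to 3552 CPM on collagen in EV cells, and to 3431 to 3504 CPM and 3229 to 3453 CPM in Wisp1 cells.

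Both hexokinases, which trap glucose in the cell, changed, in opposite directions. Hk1, the constitutive form, was at 140, 148 and 127 CPM in EV cells on plastic and 165, 166 and 159 CPM on collagen. It was at 140, 145 and 143 CPM in Wisp1 cells on plastic and 191, 167 and 160 CPM on collagen. In both lines all collagen libraries were above all plastic libraries (log2 change 0.25 ± 0.06, adjusted p = 0.0054 in EV, and 0.28 ± 0.06, adjusted p = 0.0024 in Wisp1 cells). Hk2 was at 83.9, 86.2 and 82.6 CPM in EV cells on plastic and 71.5, 68.5 and 72.3 CPM on collagen. It was at 88.4, 86.3 and 87.8 CPM in Wisp1 cells on plastic and 82.1, 73.3 and 69.3 CPM on collagen. Here all collagen libraries were below all plastic libraries (−0.25 ± 0.05, adjusted p = 0.0015 in EV, and −0.22 ± 0.05, adjusted p = 0.0034 in Wisp1 cells). The ratio of Hk1 to Hk2 counts was 1.54 to 1.71 in the 6 plastic libraries of the stable lines and 2.20 to 2.43 in the 6 collagen libraries. It was 1.36 to 1.92 in untreated and 1.94 to 2.41 in TGFb1-treated parental cells. These ratios are given as a description. Both hexokinase calls were lost in both lines in the fit of all 18 libraries and in no fit that left out 1 library.

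Pfkfb3, which makes the phosphofructokinase activator fructose 2,6-bisphosphate, was at 18.2, 16.7 and 17.4 CPM in EV cells on plastic and 12.8, 13.6 and 15.4 CPM on collagen. In Wisp1 cells it was at 19.5, 16.3 and 19.0 CPM on plastic and 12.8, 13.9 and 14.0 CPM on collagen. It was lower in every collagen library (log2 change −0.31 ± 0.08, adjusted p = 0.0089 in EV, and −0.43 ± 0.08, adjusted p = 0.0012 in Wisp1 cells). Ldha was at 2117, 2146 and 2032 CPM in EV cells on plastic and 1885, 1826 and 1851 CPM on collagen, and at 1972, 2074 and 2220 CPM in Wisp1 cells on plastic and 1948, 1837 and 1665 CPM on collagen. No library overlapped in either line (−0.17 ± 0.05, adjusted p = 0.019 in EV, and −0.19 ± 0.05, adjusted p = 0.0096 in Wisp1 cells). The EV call was lost without EV plastic replicate 1 or 2 or EV collagen replicate 2 or 3 (adjusted p = 0.052 to 0.073). Higd1a, a small mitochondrial protein induced in hypoxia, had the largest fold of the members called in both lines. It was at 70.3, 66.3 and 53.9 CPM in EV cells on plastic and 49.2, 43.7 and 43.8 CPM on collagen, and at 61.5, 61.9 and 60.9 CPM in Wisp1 cells on plastic and 48.6, 42.0 and 37.3 CPM on collagen. The groups did not overlap (−0.47 ± 0.10, adjusted p = 0.0027 in EV, and −0.52 ± 0.10, adjusted p = 0.0015 in Wisp1 cells).

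Hif1a fell on collagen in both lines, from the levels given above (−0.19 ± 0.04, adjusted p = 0.0025 in EV, and −0.17 ± 0.04, adjusted p = 0.0048 in Wisp1 cells), and kept its call in each fit that left out 1 library and in that of all 18. Slc2a1 was at 118, 92.9 and 92.2 CPM in EV and 137, 98.6 and 89.1 CPM in Wisp1 cells on collagen, and overlapped with plastic in both lines. Egln3 was at 61.1, 62.6 and 42.9 CPM in EV and 48.7, 46.3 and 52.2 CPM in Wisp1 cells on plastic. On collagen it was at 66.8, 52.7 and 47.5 CPM (EV) and 78.1, 48.8 and 41.3 CPM (Wisp1), with wide overlap. Car9 was at 53.7, 34 and 26.7 CPM (EV) and 73.5, 36.1 and 25.8 CPM (Wisp1) on collagen, and Pdk1 at 76.6, 60.8 and 59.4 CPM (EV) and 90.7, 59.4 and 53.9 CPM (Wisp1). None of these 4 genes passed, and in each of them the first collagen library of each line was the highest of its group.

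**Figure D3:**
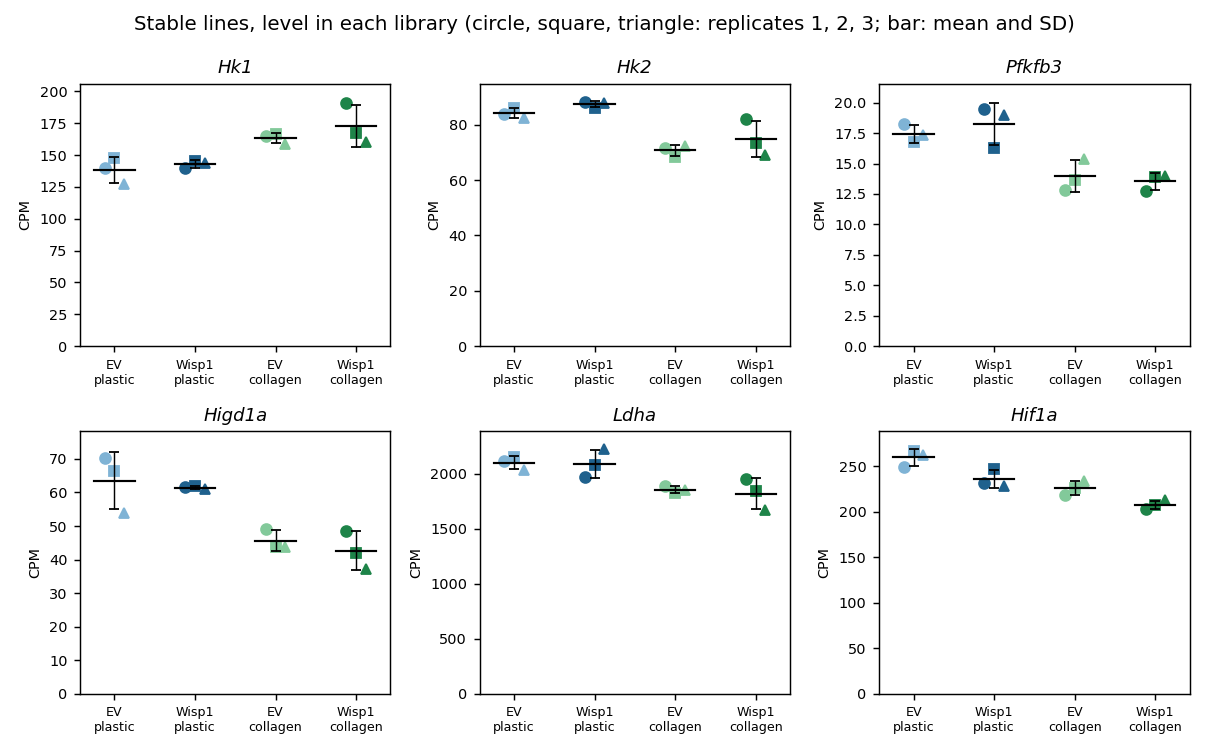
Level of 6 genes in CPM (y axis, linear from 0) in each of the 12 stable-line libraries by group (x axis). Symbols are replicates and bars are mean and SD of 3; in each line Hk1 is higher on collagen, and Hk2, Pfkfb3, Higd1a, Ldha and Hif1a are lower, with no overlap between the substrates.

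The remaining calls on collagen depended on single libraries. In EV cells Ddit4 was at 95.2, 150 and 87.0 CPM on plastic and 68.3, 49.0 and 44.2 CPM on collagen, with no overlap (2.05-fold lower, log2 change −1.04 ± 0.31, adjusted p = 0.028). The call was lost without EV plastic replicate 2 or EV collagen replicate 2 or 3 (adjusted p = 0.083 to 0.10). In Wisp1 cells Ddit4 was at 69.5, 87.7 and 75.7 CPM on plastic and 89.1, 51.7 and 39.6 CPM on collagen, which overlapped (−0.36 ± 0.31, adjusted p = 0.40). Kdm3a, a histone demethylase, was called higher in Wisp1 cells, at 81.1, 84.4 and 88.5 CPM on plastic and 116, 93.7 and 90.4 CPM on collagen (0.25 ± 0.09, adjusted p = 0.038). It lost the call without any of the 3 Wisp1 plastic libraries, Wisp1 collagen replicate 1, EV plastic replicate 2 or EV collagen replicate 2 (adjusted p = 0.051 to 0.17).

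The enolase gene Eno1 was at 963, 986 and 920 CPM on plastic and 876, 858 and 854 CPM on collagen in EV cells (−0.14 ± 0.05, adjusted p = 0.033), and at 935, 958 and 979 CPM against 915, 870 and 783 CPM in Wisp1 cells (−0.15 ± 0.05, adjusted p = 0.021). Neither line overlapped between substrates. The calls were lost without EV plastic replicate 1 or 2 or EV collagen replicate 2 or 3 (EV, adjusted p = 0.082 to 0.11) and without Wisp1 plastic replicate 2 or 3 or Wisp1 collagen replicate 3 (Wisp1, adjusted p = 0.057 to 0.078). Counts of Gm5506, a near-identical copy of Eno1, were 143 to 170% of those of Eno1, so how reads divide between them is uncertain. With both summed the EV call was lost (adjusted p = 0.084). Pgk1 (copy Pgk1-rs7, 118 to 130%) and Pgam1 (copy Pgam1-ps2, 22.8 to 27.8%) carry the same doubt. Gapdh was at 544, 550 and 511 CPM on plastic and 495, 472 and 488 CPM on collagen in EV cells (−0.13 ± 0.05, adjusted p = 0.049). Its call was lost in 9 of the 12 fits that left out 1 library, all but those without Wisp1 collagen replicate 1 or 3 or EV plastic replicate 3 (adjusted p = 0.053 to 0.16). Pkm2 was at 3501, 3649 and 3818 CPM on plastic and 3561, 3301 and 3110 CPM on collagen in Wisp1 cells (−0.13 ± 0.05, adjusted p = 0.040). Its groups overlapped, and the call was lost in 7 of the 12 such fits: without EV plastic replicate 1, EV collagen replicate 2 or 3, Wisp1 plastic replicate 2 or 3, or Wisp1 collagen replicate 2 or 3 (adjusted p = 0.051 to 0.14).

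The upstream windows of Hk2 (chr6:82774455-82774704, minus strand) and Ldha (chr7:46845554-46845803, plus strand) are shown as those of a hexokinase and the lactate dehydrogenase subunit that fell on collagen in both lines, with capitals and build as for Egln3. The Hk2 window held 2 matches and the Ldha window shown held 5, where each CACGTG counts once on each strand. Another Ldha window (chr7:46846832-46847081, plus strand), not shown, held 1 match.
Hk2: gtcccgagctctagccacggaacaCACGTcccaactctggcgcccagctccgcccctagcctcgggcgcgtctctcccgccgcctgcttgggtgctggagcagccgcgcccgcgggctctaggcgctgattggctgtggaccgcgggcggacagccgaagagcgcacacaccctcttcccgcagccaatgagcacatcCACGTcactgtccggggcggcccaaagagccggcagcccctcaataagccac
Ldha: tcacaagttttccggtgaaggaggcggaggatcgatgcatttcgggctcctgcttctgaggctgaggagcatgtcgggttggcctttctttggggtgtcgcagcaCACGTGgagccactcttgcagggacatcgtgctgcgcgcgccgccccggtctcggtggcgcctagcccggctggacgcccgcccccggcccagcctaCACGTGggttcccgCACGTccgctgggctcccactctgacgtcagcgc
In the windows shown, Hk2 had its match nearest to the start at 52 bases before it and Ldha at 34.

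Beyond the 34 genes, the further lists were also read for collagen against plastic. In EV cells 10 of 18 further glycolytic and pyruvate genes were called (4 higher and 6 lower) and in Wisp1 cells 9 of 18 (3 higher and 6 lower). Of all genes tested, 36.5% were called in EV cells (19.2% higher and 17.3% lower) and 40.4% in Wisp1 cells (21.3% and 19.1%). Among genes of the pyruvate dehydrogenase complex and its control, the phosphatase Pdp2 fell by 1.54-fold in EV and 1.42-fold in Wisp1 cells (adjusted p = 2e-04 and 0.001), the subunit Pdha1 fell by 1.18-fold in each (adjusted p = 0.00052 and 0.00042), and the kinase Pdk3 fell by 1.196-fold and 1.133-fold (adjusted p = 0.00041 and 0.0047). Pdp1, a second phosphatase of the complex, rose 1.23-fold and 1.32-fold (adjusted p = 0.043 and 0.010). Of 7 HIF regulators tested, 4 were called in EV cells (3 higher and 1 lower) and 3 in Wisp1 cells (2 higher and 1 lower). Egln2, the third prolyl hydroxylase, rose from 24.99, 27.8 and 28.9 CPM to 34.6, 34.3 and 36.8 CPM in EV cells (1.30-fold, adjusted p = 0.00024), and 1.22-fold in Wisp1 cells (adjusted p = 0.0014).

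Of 34 further hypoxia-response genes, 17 were called in EV cells (5 higher and 12 lower) and 14 in Wisp1 cells (6 higher and 8 lower). The shares of all genes called were 36.5% in EV and 40.4% in Wisp1 cells. Edn1, the endothelin precursor, fell from 5.90, 6.81 and 6.64 CPM on plastic to 0.781, 0.927 and 0.918 CPM on collagen in EV cells (7.29-fold lower, adjusted p = 1.8e-08), and 8.06-fold in Wisp1 cells. Bhlhe40 fell 2.67-fold in EV and 2.18-fold in Wisp1 cells. Upp1 rose from 20.6, 18.9 and 16.1 CPM to 42.0, 37.5 and 39.7 CPM in EV cells (2.15-fold, adjusted p = 3.3e-07), and 2.04-fold in Wisp1 cells.

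Within a group of the stable lines, most members were high or low in the same library. The first Wisp1 collagen library was the highest of its 3 for 30 of 32 members with enough counts, where it was the highest for 45.1% of 13805 genes. The first EV collagen library was the highest for 27 of 32 (35.4% of all genes). On plastic the third EV library was the lowest for 30 of 32 (36.6% of all genes) and the first Wisp1 library for 25 of 32 (38.7%). The parental groups showed less of this, with the first untreated library the highest for 19 of 32 (41.2% of all genes). Adm, the vasodilator peptide adrenomedullin, was at 6.17, 1.87 and 0.938 CPM in Wisp1 cells on collagen, the widest ratio of any member in that group apart from Slc2a3 and Slc16a3. Ndrg1, a stress-induced gene, was at 460, 269 and 221 CPM, and Bnip3 at 140, 82.7 and 66.6 CPM, in the same 3 libraries. For all 3 genes the first of these libraries was the highest and the third the lowest, and what differed between the cultures was not tested.

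**Figure D4:**
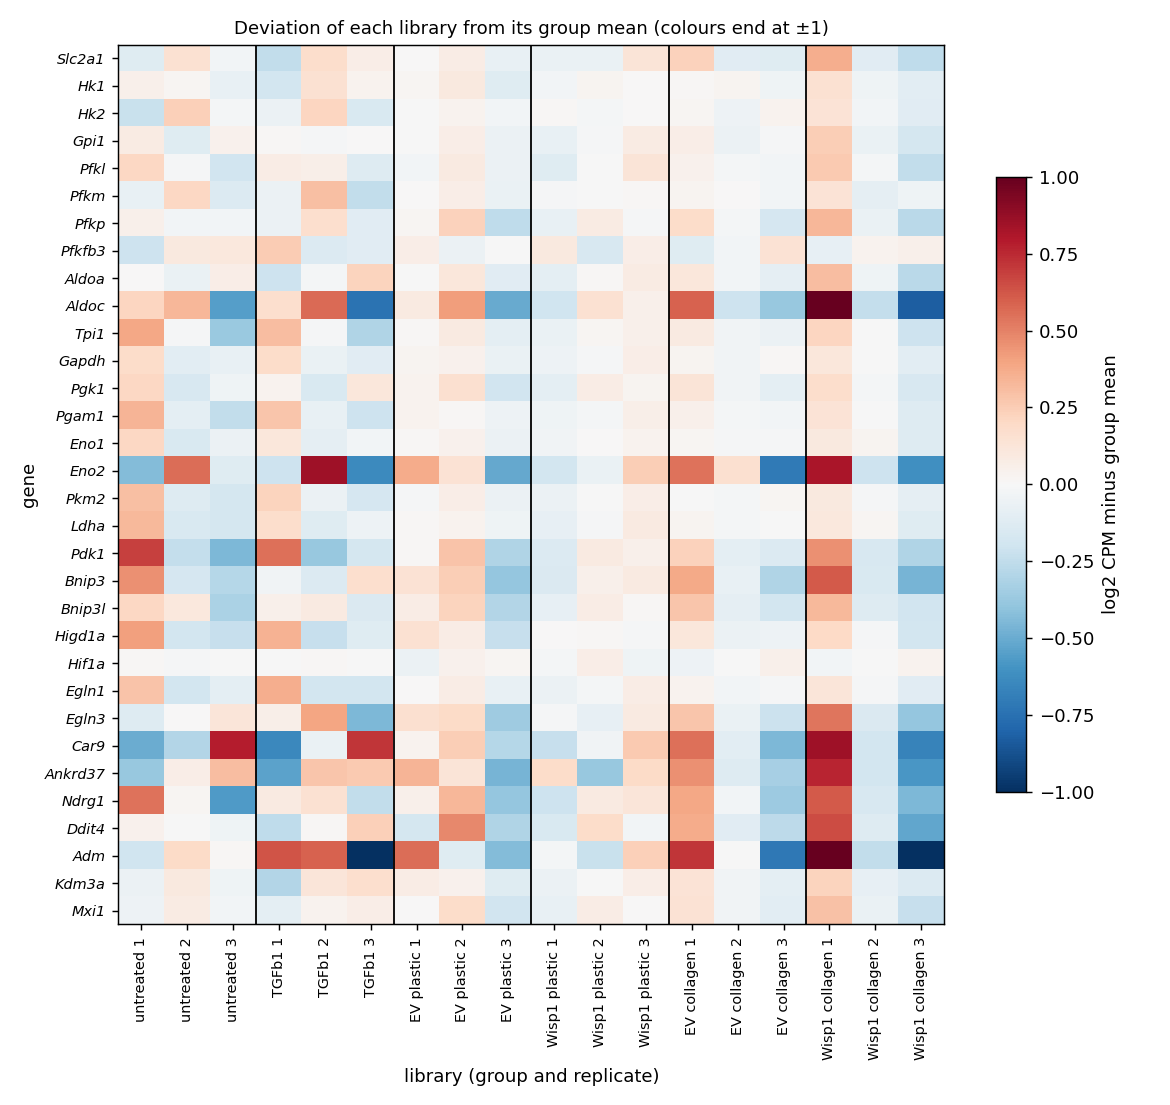
Log2 CPM of each member with enough counts (y axis) minus the mean of its group, in each library (x axis, black lines between groups), with red above and blue below the mean and colours ending at ±1. The first collagen libraries are mostly red, being the highest of their group for 27 (EV) and 30 (Wisp1) of 32 members.

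As a description over deviations from the group means, the median Spearman correlation over pairs of members was 0.83 in the 12 stable-line libraries and 0.086 in the 6 parental libraries; the points share libraries and depth. Car9 tracked Ndrg1 at 0.98 and Kdm3a, Bnip3 and Aldoa at 0.97 in the stable lines. In the 6 parental libraries the same correlations were −0.71 with Ndrg1, 0.66 with Kdm3a, −0.49 with Bnip3 and 0.77 with Aldoa. Over all 18 libraries the genes closest to Car9 were Aldoa (0.88) and Ankrd37, an ankyrin-repeat HIF target (0.85). Hif1a and Pfkfb3 ran the other way in the stable lines, at −0.55 and −0.54 with Car9.

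Of the 34 members, 13 were called in at least 1 comparison in the fits without a block of the 6 parental or 12 stable-line libraries, 20 were tested and called in none of these, and Slc2a3 was not tested. The same tally was not made over all genes, so it only accounts for the members and allows no comparison with other genes. Of all genes tested, 36.5% (EV) and 40.4% (Wisp1) were called on collagen and 11.1% with TGFb1. These are shares of single comparisons and cannot be set against a tally over several. Among the 20, the upper-glycolysis enzymes not yet described were the isomerase Gpi1, at 298 to 539 CPM over all libraries, the phosphofructokinases Pfkl (191 to 462 CPM) and Pfkm (34.6 to 57.1 CPM), the main aldolase Aldoa (526 to 1416 CPM) and the triose isomerase Tpi1 (234 to 933 CPM). Of these, Gpi1, Aldoa and Tpi1 had their highest value in the first Wisp1 collagen library, where most members were highest in their group. Pfkl had its highest value in the third Wisp1 plastic library and Pfkm in the second TGFb1 library. In lower glycolysis the kinase Pgk1 lay at 143 to 573 CPM, the mutase Pgam1 at 290 to 836 CPM and the neuronal enolase Eno2 at 2.39 to 10.1 CPM. The mitophagy receptor Bnip3l lay at 137 to 215 CPM, the Myc antagonist Mxi1 at 40.5 to 75.1 CPM and Ankrd37 at 1.97 to 9.22 CPM. Bnip3l, Mxi1, Ankrd37 and Eno2 all had their highest value in the first Wisp1 collagen library.

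Leaving out the first library of both collagen groups, chosen after its values were seen, moved the count in EV cells from 9 to 15 of 32 members, 1 higher and 14 lower, where 36.3% of all genes were called (19% higher and 17.3% lower). In Wisp1 cells it moved from 9 to 13, 1 higher and 12 lower, where 35.4% were called (18.8% higher and 16.6% lower). The libraries left out were those in which most members were highest, so the direction of the added calls is not independent of that choice. The members added in EV cells were Pfkp, Aldoc, Tpi1, Pgk1, Pgam1 and Egln1, with Aldoc 2.48-fold lower (adjusted p = 0.0093) and Pfkp 1.32-fold lower (adjusted p = 0.047). In Wisp1 cells Kdm3a was lost, and Pfkl, Tpi1, Gapdh, Pgam1 and Egln1 were added, from 1.13-fold lower (Gapdh) to 1.2-fold lower (Pfkl). Leaving out only the first Wisp1 collagen library gave 15 called members in EV cells (39.5% of all genes). Leaving out EV plastic replicate 2, EV collagen replicate 2 or EV collagen replicate 3 gave 5 each, where 29.7%, 27.3% and 32.6% of all genes were called.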

How the data were processed

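Poly(A)-enriched RNA from 18 cultures was sequenced from stranded mRNA libraries, per the labels' protocols. Each deposited file gives raw read counts by gene symbol for 1 library, not normalized by the authors. Among tools, the submitters' processing notes list STAR, BWA, HTSeq, CASAVA, R 3.2.4 and limma, without roles, and as build mm9. Which annotation and strand setting were used, and how reads with several alignments were handled, is not given in the sources used here. Entries that name no gene were left out of library sizes and tests.

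Counts were tested with edgeR 4.0.16 (quasi-likelihood F test with robust fit, TMM factors, filterByExpr) in R 4.3.3: TGFb1 in a fit of the 6 parental libraries, the other comparisons in a fit of the 12 stable-line libraries with 4 group means. P-values were adjusted by Benjamini-Hochberg over all genes of a comparison and called under 0.05. The standard error of a log2 change was obtained by dividing it by the square root of its F. Log2 CPM used a prior count of 2. Chi-squared between replicates, per degree of freedom, ran from 2.68 to 152, above counting error alone, which is all that counting intervals cover. The tests were checked on simulated data.

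Groups came from the sample titles. Named were all called members and Hif1a, Egln3, Slc2a1, Hk2, Ldha, Car9 and Pdk1, and of 3 further lists up to 4 called genes per direction, 1 of which is not reported here; a few other members were named after their values were seen. The members and lists were chosen with earlier results of these data known. Pairing was checked by correlating deviations of same-numbered libraries from their group means, with a minimum of 0.1. Parental pairs, which share codes in the titles, gave 0.79, 0.55 and 0.78. EV and Wisp1 gave 0.12, 0.21 and 0.22 on plastic and 0.47, 0.15 and 0.33 on collagen, and plastic and collagen libraries did not pass (EV 0.12, −0.12 and 0.28; Wisp1 −0.03, −0.07 and −0.01). Alternatives were DESeq2 1.42.0, limma-voom (limma 3.58.1), RLE scaling, other filters, replicate blocks, other sets of libraries and each library left out. The block within each substrate, the sums with near-identical copies and the fit without the first collagen libraries were chosen after seeing the data. Promoter windows are 250 bases upstream of RefSeq starts (GRCm38.p6) and were matched by symbol or synonym; no coordinates were mixed with mm9.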

Additional observations from a re-analysis of the deposited data

How the results depend on the processing

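The number of members called with TGFb1 was 3, from 2 to 3 with 1 library left out, 13 with the replicate block and 6 in a fit of all 18 libraries. For collagen in EV cells it was 9, from 5 to 15 with 1 library left out, 2 in the fit of all 18 libraries and 15 without the first library of both collagen groups. For collagen in Wisp1 cells it was 9, from 6 to 13 with 1 library left out, and 3 in the fit of all 18 libraries. Wisp1 against EV gave 0 on each substrate with any 1 library left out and 1 on each with the replicate block within each substrate, which rests on correlations of the data alone. The interaction gave 0 in each setting run. The share of member windows with the motif was 77.1% on both strands and 52.1% on the gene's strand. The other settings (DESeq2, limma-voom, RLE scaling, other filters, only the 6 libraries compared, copies added, the replicate block over all 4 stable groups) stayed within 1.5 times the main count.

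For single genes, 548 values kept direction and side of the threshold, 58 kept direction and lost the call, 16 gained it and 0 reversed. The causes of these shifts were not tested. Slc2a3 had too few counts to pass the filter of the main fits in any comparison, as had Slc16a3 in the stable lines. With 3 libraries a group, changes as small as those of the glycolytic enzymes on collagen sit near the threshold.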
